A study of Mus musculus with 13 samples.

Results

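The insulin and insulin-like growth factor (IGF) axis is described here by 10 genes among the 23361 gene symbols in the tables, chosen by name as its core liver components: the hormone gene Igf1, the carrier subunit gene Igfals, the binding protein genes Igfbp1, Igfbp2 and Igfbp3, the receptor genes Insr, Igf1r and Igf2r, and the adaptor genes Irs1 and Irs2. All 10 were in the files and all 10 passed the filter on low counts. RNA was sequenced from liver tumours (hepatocellular carcinoma) of Mst1-/-; Mst2Flox/Flox mice on a mixed C57BL/6 and 129Sv background. These mice, controls and treated animals alike, had been given an adenovirus carrying Cre. Mst1 and Mst2 are the Hippo kinases, and how far Mst2 was lost in the tumours is not given by the labels. The 8 control libraries (siLuc) came from tumours of mice given lipid nanoparticles with an siRNA against luciferase, and the 5 treated libraries (siYap) from mice given nanoparticles with an siRNA against Yap, both by vein over 9 days. The labels give neither age nor sex, do not name the promoter that drives Cre or the cells of the liver that take up the virus or the particles, and name no animal for any library, so that p-values measure the spread between libraries. The file names carry a number that some libraries of a group share, so that the 8 siLuc libraries hold 5 numbers and the 5 siYap libraries 3, and libraries with a shared number may come from the same animal. With counts summed per number, the calls of Irs1, Irs2 and Igf2r described here held (log2 fold change 0.91, 1.32 and 0.79, adjusted p = 0.00273, 0.00399 and 0.00845). The comparison asks how the tumours' insulin and IGF genes stand when Yap is lowered.

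The liver is the main source of circulating IGF-1, which growth hormone induces through Jak2 and Stat5. In blood IGF-1 travels mostly in a complex with IGFBP-3 and the acid-labile subunit, the product of Igfals, while IGFBP-1 and IGFBP-2 form smaller complexes. Insulin acts on hepatocytes through its receptor and the docking proteins IRS-1 and IRS-2, which recruit PI3-kinase and activate Akt. Akt keeps the transcription factor Foxo1 out of the nucleus, and in the fasted liver, where insulin is low, Foxo1 raises Igfbp1 and Irs2. Hepatocytes carry many insulin receptors and few type 1 IGF receptors.

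Between 23637018 and 37043914 estimated fragments were assigned to genes per library. The siYap replicates 1 and 3 were the shallowest and held the most Rn45s, a precursor of ribosomal RNA, with 1160 and 1882 CPM (counts scaled to library size) against 479 to 812 CPM in the other 11 libraries. Yap1 was lower in all 5 siYap libraries than in any siLuc library, at 3.29 ± 0.845 FPKM (fragments scaled to transcript length and library size, mean ± SD, n = 5) against 9.999 ± 1.37 FPKM (n = 8). The difference was -1.58 ± 0.17 (SE) as a log2 fold change (adjusted p = 2.36e-05) in edgeR's quasi-likelihood test with Benjamini-Hochberg adjustment, which gives every log2 fold change and adjusted p below unless another test is named. Hepatocyte markers were high throughout, summing to 14970 to 23821 FPKM in siLuc against 10518 to 18494 FPKM in siYap; 2 of the 7 tested were called lower. All 5 tested neutrophil markers were called higher, from sums of 34.3 to 189 FPKM in siLuc to 157 to 1175 FPKM in siYap. Cholangiocyte markers summed to 1938 to 5053 FPKM in siLuc against 159 to 1141 FPKM in siYap. Most of this sum was Spp1, which averaged 4120 FPKM in siLuc and 521 FPKM in siYap, so the sum follows that gene. Of the 6 markers, 3 were called lower (Sox9, Epcam and Spp1). Cftr was not called (adjusted p = 0.397). Krt19 and Krt7 were under 1 FPKM on average in both groups and were not called (adjusted p = 0.785 and 0.89). Of the 8 endothelial and the 8 stellate or fibroblast markers, 3 and 2 were called higher. Of the 7 tested macrophage markers 2 were called lower (Clec4f and Csf1r), as were 1 of 4 tested T cell and 1 of 3 tested erythroid markers, and none of 3 tested B cell markers passed in either direction. No marker was at 0 in all libraries. The part of these markers in the results below was not tested, and in bulk tumour RNA fewer cells of a type and less RNA per cell cannot be told apart.

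Both insulin receptor substrates and the clearance receptor Igf2r rose in siYap tumours, and none of the other 7 genes passed the test. In all, 3 of the 10 members were called at an adjusted p under 0.05, where 30.8% of the 15132 tested genes were. These 3 were called higher, where 16.0% of tested genes were, and 0 were called lower, where 14.8% of tested genes were. Another 3 members (Insr, Igfbp1 and Igfbp2) had an unadjusted p under 0.05 in edgeR, and Igfbp2 was the only member called lower by DESeq2's Wald test. The median log2 fold change of the 10 members was 0.15, against 0.00 over all tested genes, with 5 members above 0 and 5 below. The adaptors and Igf2r lay on the higher side, the binding proteins on both sides, and the hormone and its carrier subunit near 0.

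**Figure D1:**
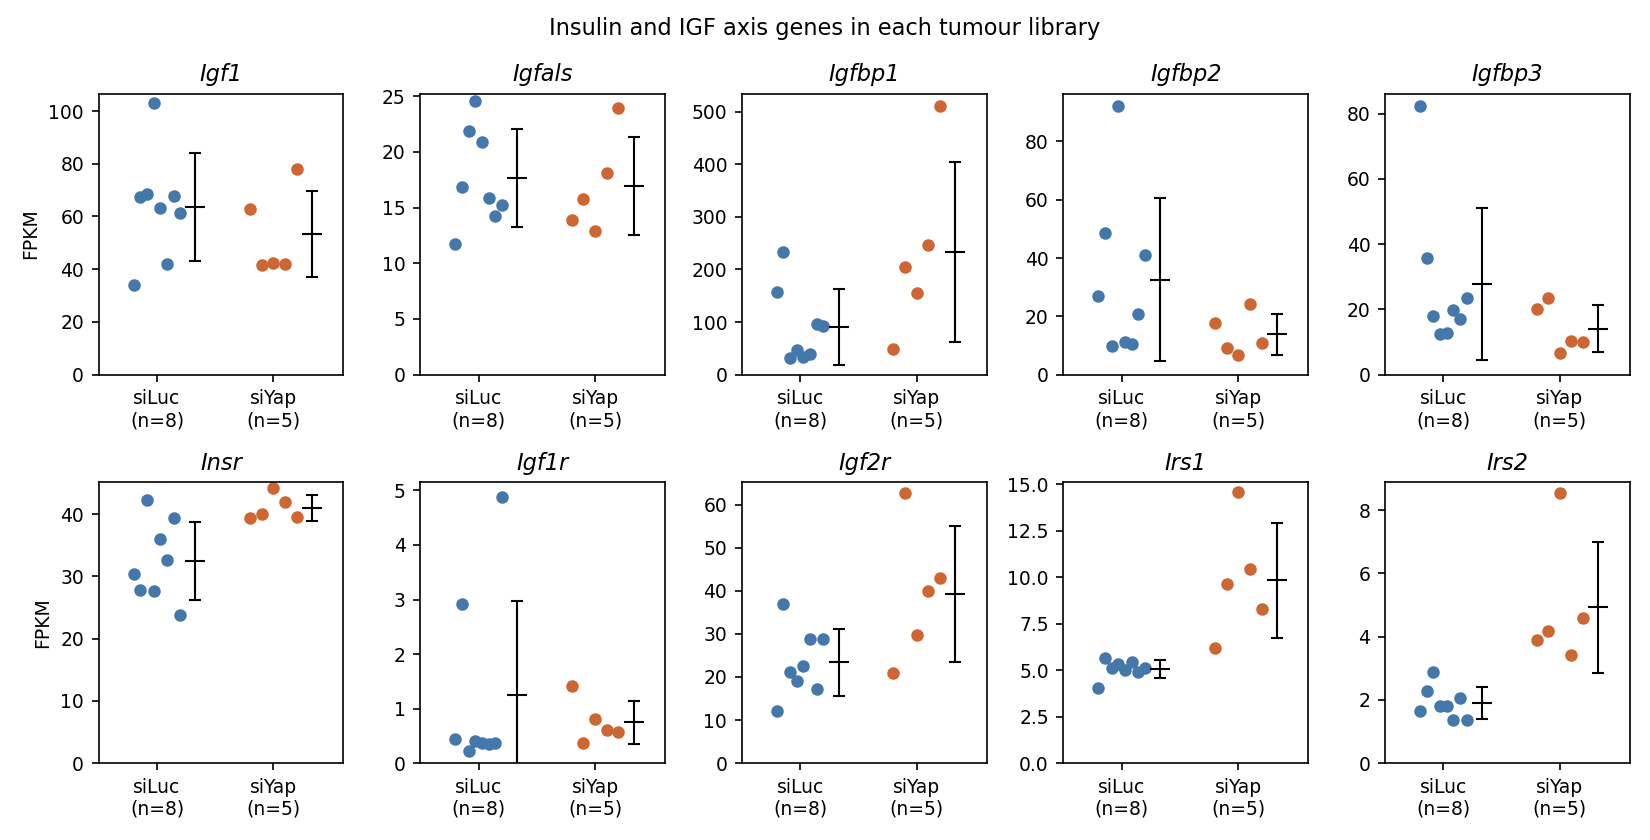
Level of each of the 10 genes (FPKM, linear axes from 0) in every library, siLuc in blue (n = 8) and siYap in orange (n = 5), with replicates from left to right in the order of their numbers and the black bar giving mean and SD; the lower SD bar of Igf1r in siLuc runs below 0 and is not drawn there. The siYap points of Irs1 and Irs2 lie above all siLuc points, while those of the other 8 genes overlap the siLuc range.

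**Figure D2:**
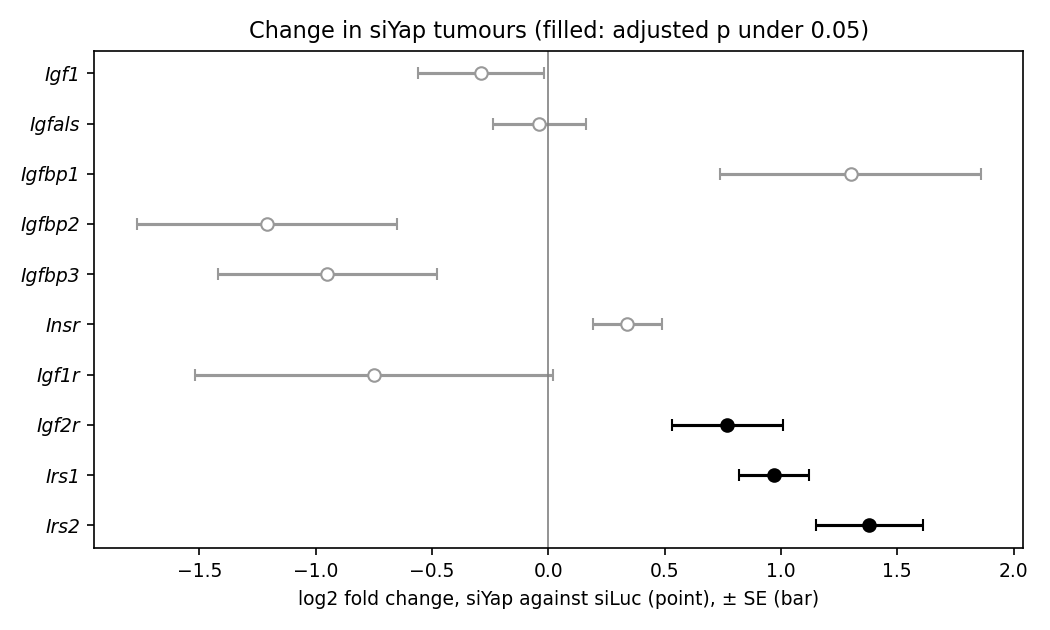
Log2 fold change of siYap against siLuc for each gene (points) with its standard error (bars), from edgeR's quasi-likelihood test over the 13 libraries; filled points passed an adjusted p of 0.05. Igf2r, Irs1 and Irs2 are filled, at 0.77, 0.97 and 1.38, and the 7 open points run from -1.21 (Igfbp2) to 1.30 (Igfbp1).

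Both adaptor genes separated the groups. Irs1 (mouse genome build GRCm38, chromosome 1, 82233101 to 82291416, minus strand) encodes the docking protein that links the insulin and IGF-1 receptors to PI3-kinase. Its siLuc libraries ran from 4.03 to 5.63 FPKM with a median of 5.12 FPKM. In siYap replicates 1 to 5 Irs1 stood at 6.19, 9.63, 14.6, 10.4 and 8.28 FPKM. Every siYap library was thus above every siLuc library, and the siYap libraries spread more widely than the siLuc libraries, with an SD of 3.11 FPKM around 9.83 FPKM against 0.484 FPKM around 5.08 FPKM. Irs1 rose by 0.97 ± 0.15 (SE) on the log2 scale (adjusted p = 0.000285).

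Irs2 (chromosome 8, 10984681 to 11008458, minus strand) encodes the second major docking protein of the liver, which is known to rise in fasting. Its siLuc libraries ran from 1.36 to 2.89 FPKM with a median of 1.82 FPKM. The siYap values were 3.91, 4.17, 8.53, 3.42 and 4.59 FPKM in replicates 1 to 5. Here too the groups were apart, siYap above siLuc throughout, and replicate 3 stood apart at the top. Irs2 rose by 1.38 ± 0.23 (SE) on the log2 scale (adjusted p = 0.000486). A pattern of this kind, with all siYap above all siLuc values, was seen in 5.57% of tested genes, and the reverse pattern in 5.66%. The low level of Irs2 rests on 186 to 1051 fragments per library.

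The library with the highest Irs1 and Irs2, siYap replicate 3, was also the library with the most Rn45s. Without it the log2 fold changes were 0.80 for Irs1 and 1.11 for Irs2 (adjusted p = 0.000554 and 0.00141), and without both shallow libraries they were 0.89 and 1.09 (adjusted p = 0.00016 and 0.00376). The ratio of Irs1 to Irs2 in FPKM had a median of 2.61 in siLuc (1.78 to 3.95) and 1.80 in siYap (1.59 to 3.05), with overlap between the groups. Irs1 stayed above Irs2 in every library.

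Promoter sequence was available for 9 of the 10 genes, in 12 windows of 300 bases that run from 250 bases before to 50 bases after a RefSeq start site (GRCm38.p6). The letters TGTTTTG, a core of the insulin response element that Foxo factors bind, were found on either strand in windows of 3 of these genes: Irs1, Irs2 and Igfbp1. Of all 32851 windows in the table, 6.28% hold these letters. Irs1 holds them at positions -111 and -32 and Irs2 at -37, both on the strand of the gene, and Igfbp1 holds the reverse complement CAAAACA from position -108. The upstream 250 bases of these 3 genes are shown because they share this element, 5′ to 3′ on the strand of the gene, with the matches in capitals. They lie at chr1:82291440-82291689 (minus strand), chr8:11008930-11009179 (minus strand) and chr11:7197537-7197786 (plus strand).
Irs1: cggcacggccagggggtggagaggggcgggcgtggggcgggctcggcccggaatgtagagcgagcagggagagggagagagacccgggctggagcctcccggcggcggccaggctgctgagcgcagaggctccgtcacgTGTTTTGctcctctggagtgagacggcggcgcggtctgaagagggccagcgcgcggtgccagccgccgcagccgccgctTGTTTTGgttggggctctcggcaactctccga
Irs2: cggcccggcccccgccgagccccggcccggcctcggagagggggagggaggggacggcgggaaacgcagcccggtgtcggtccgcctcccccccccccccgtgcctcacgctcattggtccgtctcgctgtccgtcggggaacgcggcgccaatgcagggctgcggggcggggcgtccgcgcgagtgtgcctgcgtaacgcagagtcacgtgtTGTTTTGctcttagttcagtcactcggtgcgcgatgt
Igfbp1: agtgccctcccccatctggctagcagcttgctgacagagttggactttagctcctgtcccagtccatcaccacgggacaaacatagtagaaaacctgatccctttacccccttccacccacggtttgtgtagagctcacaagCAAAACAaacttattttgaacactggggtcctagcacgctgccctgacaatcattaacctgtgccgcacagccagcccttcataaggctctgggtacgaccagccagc
The other motifs searched on both strands were TGTTTAC, the Foxo consensus core, GGAATG, the Tead core, ATCAAAG, the Tcf/Lef core, and TTCNNNGAA, the Stat5 core. TGTTTAC shares its start with TGTTTTG, and the 2 cannot match at the same position. TGTTTAC was found in 1 window of Igfals (3.65% of all windows), GGAATG in windows of Irs1 and Igfals (14.7% of all windows), TTCNNNGAA in 2 windows of Igfals (8.3% of all windows), and ATCAAAG in no window of a member (3.73% of all windows). A match is a match of letters in these windows only.

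Among the receptors, the transcript of the scavenger receptor rose, the insulin receptor was higher in all siYap libraries than the siLuc mean without passing the test, and the type 1 IGF receptor was scarce. Igf2r (chromosome 17, 12682406 to 12769664, minus strand) encodes the mannose 6-phosphate receptor, which takes IGF-2 into lysosomes, and is expressed from the maternal allele in most mouse tissues. Its siLuc libraries ran from 12.1 to 37.0 FPKM with a median of 21.8 FPKM. In siYap replicates 1 to 5 it stood at 20.9, 62.7, 29.8, 39.9 and 43.0 FPKM. The siYap replicates 2, 4 and 5 lay above all siLuc libraries and replicates 1 and 3 within their range. Igf2r rose by 0.77 ± 0.24 (SE) on the log2 scale (adjusted p = 0.0262). Its call ended when siYap replicate 2 was left out (0.55, adjusted p = 0.0922), when siYap replicate 5 was left out (0.75, adjusted p = 0.0506) and in limma on log2(FPKM + 1) (0.70, adjusted p = 0.0556).

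Airn, the long antisense RNA that silences Igf2r on the paternal allele, was higher in all siYap libraries. It overlaps Igf2r over 28354 bases (chromosome 17, 12741311 to 12860136, plus strand), which is 23.9% of the Airn locus. Airn ran from 2.22 to 4.12 FPKM in siLuc, with a median of 3.35 FPKM, and stood at 10.1, 13.3, 24.8, 17.6 and 12.6 FPKM in siYap replicates 1 to 5 (log2 fold change 2.46 ± 0.23, adjusted p = 6.88e-06). Whether the counting used strand is not given in the sources used here, so that reads from the overlap cannot be told apart. The 2 RNAs did not peak in the same siYap library: Airn was highest in replicate 3, where Igf2r was 29.8 FPKM, and Igf2r was highest in replicate 2.

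Insr (chromosome 8, 3122061 to 3279617, minus strand) encodes the insulin receptor. It ran from 23.9 to 42.2 FPKM in siLuc, with a median of 31.5 FPKM. The siYap values of Insr were 39.3, 39.9, 44.1, 41.9 and 39.5 FPKM in replicates 1 to 5. The siYap libraries lay close together near the top of the siLuc range, all of them above 6 of the 8 siLuc libraries, and replicate 3 alone exceeded every siLuc library. For Insr the log2 fold change of 0.34 ± 0.15 (SE) did not pass the test (adjusted p = 0.0968). It passed without siLuc replicate 3 (0.41, adjusted p = 0.0495) and in a model with a term for the code in the file names (0.43, adjusted p = 0.0285).

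Igf1r (chromosome 7, 67952827 to 68233668, plus strand), the type 1 IGF receptor, was the lowest of the 10 genes in both groups by mean FPKM. Its siLuc libraries ran from 0.225 to 4.89 FPKM with a median of 0.384 FPKM. Igf1r stood at 1.41, 0.370, 0.801, 0.607 and 0.566 FPKM in siYap replicates 1 to 5. The siLuc replicates 2 and 8, at 2.91 and 4.89 FPKM, lay above all siYap libraries, and the other 6 siLuc libraries were at 0.443 FPKM or below. The log2 fold change was -0.75 ± 0.77 (SE, adjusted p = 0.484), and it was 0.04 without siLuc replicate 8 (adjusted p = 0.964). That library alone was male by its reads: 4 Y-linked genes held 28874 fragments there and 11 or fewer elsewhere. The ratio of Insr to Igf1r in FPKM ranged from 4.88 to 188 in siLuc and from 27.9 to 108 in siYap.

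The binding proteins did not move together. Igfbp1 was on average higher in siYap tumours and Igfbp2 and Igfbp3 on average lower, none of them past the test, and all 3 varied several-fold between libraries of the same group. Igfbp1 (chromosome 11, 7197782 to 7202546, plus strand) encodes the short-lived binding protein that insulin represses in hepatocytes. Its siLuc libraries ran from 31.3 to 234 FPKM with a median of 69.8 FPKM. Against these, siYap gave 49.1, 204, 155, 246 and 510 FPKM in replicates 1 to 5. The groups overlapped: siLuc replicates 1 and 2 reached 157 and 234 FPKM, and siYap replicate 1 lay between siLuc replicates 4 and 8. The log2 fold change was 1.30 ± 0.56 (SE, adjusted p = 0.0894), and single libraries moved it: it passed without siLuc replicate 2 (1.62, adjusted p = 0.0367) and was 0.80 without siYap replicate 5 (adjusted p = 0.296).

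The file names carry a code whose first digit (6, 7 or 8) divides the libraries of both treatments, and the labels do not say what it stands for. Within digit 6 (siLuc replicates 1 and 2, siYap replicates 1 and 2) the difference in Igfbp1 was -0.88 on the log2 CPM scale. Within digit 7 (siLuc replicates 3 to 7, siYap replicates 3 and 4) it was 2.1, and between the single libraries of digit 8 (siLuc replicate 8, siYap replicate 5) it was 2.47. The sign thus depended on the digit, a difference that was not tested. Within digit 6 the groups overlapped. There siYap replicate 2 (204 FPKM) lay between siLuc replicates 1 and 2 (157 and 234 FPKM), and the shallow siYap replicate 1 (49.1 FPKM) lay below both. Without the 4 libraries of digit 6, a choice made after the values were seen, the log2 fold change of Igfbp1 was 2.43 (adjusted p = 0.00393).
The same differences for Irs1 were 0.78, 1.24 and 0.71 within digits 6, 7 and 8, and for Irs2 1.13, 1.46 and 1.75. For Igf2r they were 0.85, 0.67 and 0.59. Digit 8 has 1 library in each group and so no spread. Its siLuc library is the male one, with 28874 Y-linked fragments, and its siYap library held 7. Within digit 8, sex and treatment therefore cannot be told apart.

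**Figure D3:**
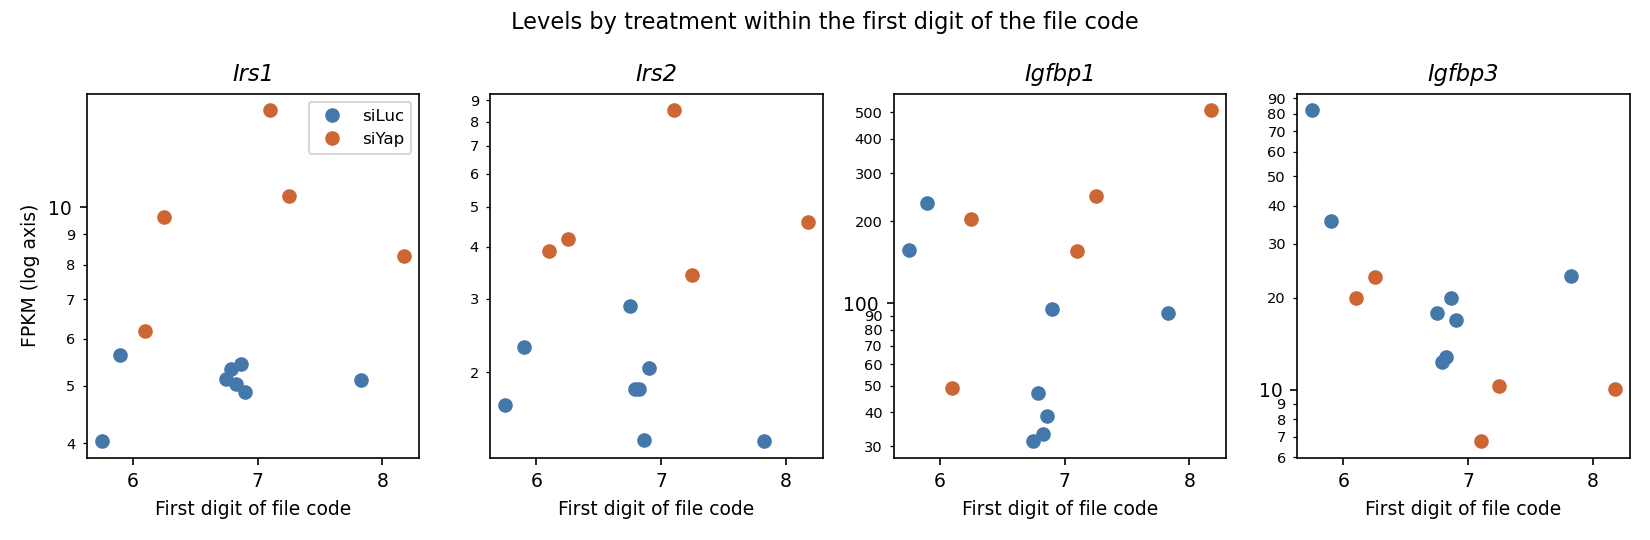
Levels of Irs1, Irs2, Igfbp1 and Igfbp3 (FPKM, log axis) in each library, arranged by the first digit of the file code, siLuc in blue and siYap in orange; each point is 1 library. Irs1 and Irs2 are higher in siYap within all 3 digits, Igfbp3 is lower within all 3, and Igfbp1 is higher within digits 7 and 8 only. In digit 8 the siLuc library is the male one, so sex and treatment cannot be told apart there.

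Igfbp2 (chromosome 1, 72824503 to 72852474, plus strand), a binding protein that is abundant in fetal liver, ran from 9.73 to 92.1 FPKM in siLuc with a median of 24.0 FPKM. Its siYap values were 17.8, 9.22, 6.82, 24.3 and 10.98 FPKM in replicates 1 to 5. All siYap libraries lay below the siLuc mean of 32.6 FPKM, a mean well above the siLuc median. The siYap replicate 4 lay just above that median, and replicates 2 and 3 below every siLuc library. The siLuc libraries of Igfbp2 themselves fell into a wide range, with replicates 3, 5 and 6 at its lower end and replicate 4 at the top. The log2 fold change was -1.21 ± 0.56 (SE, adjusted p = 0.114), and DESeq2's Wald test called it (-1.22, adjusted p = 0.0413).

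Igfbp3 (chromosome 11, 7206086 to 7213923, minus strand), the main carrier of IGFs in blood, lies 3539 bases from Igfbp1 in the opposite orientation. In siLuc it ran from 12.4 to 82.3 FPKM with a median of 18.9 FPKM. Its siYap values were 19.98, 23.4, 6.78, 10.3 and 10.04 FPKM in replicates 1 to 5. The siYap replicates 3, 4 and 5 lay below all siLuc libraries, and replicates 1 and 2 within the siLuc range. The log2 fold change was -0.95 ± 0.47 (SE, adjusted p = 0.140). Within digits 6, 7 and 8 of the file code, the differences in Igfbp3 were -1.28, -0.93 and -1.22, and in the model with a term for the digit the log2 fold change of -1.13 passed (adjusted p = 0.00147).

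The neighbours Igfbp1 and Igfbp3 moved in opposite directions on average, and neither passed the test over all libraries. The ratio of Igfbp1 to Igfbp3 in FPKM, formed after the values were seen, lay between 1.75 and 6.54 in siLuc with a median of 3.19. In siYap it was 2.46, 8.71, 22.9, 23.9 and 50.8 in replicates 1 to 5. All siYap libraries but replicate 1 lay above every siLuc library in this ratio, and replicate 1 lay within the siLuc range. Because the opposite directions were known when the pair was chosen, this separation is a description only. A group difference in the ratio was not tested, nor was how often other gene pairs separate in this way.

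The hormone gene and its carrier subunit stayed within the siLuc range. Igf1 (chromosome 10, 87858265 to 87937042, plus strand) ran from 34.2 to 103 FPKM in siLuc with a median of 65.2 FPKM. In siYap it stood at 62.9, 41.7, 42.3, 41.8 and 78.0 FPKM in replicates 1 to 5. The siYap replicates 2, 3 and 4 lay close together in the lower part of the siLuc range, and the log2 fold change of -0.29 ± 0.27 (SE) did not pass the test (adjusted p = 0.422). Igfals (chromosome 17, 24865997 to 24882010, plus strand), whose product holds IGF-1 in the large circulating complex, ran from 11.7 to 24.6 FPKM in siLuc with a median of 16.4 FPKM. Its siYap values were 13.9, 15.7, 12.9, 18.1 and 24.0 FPKM. The groups coincided, and the log2 fold change was -0.04 ± 0.20 (SE, adjusted p = 0.904).

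Over the 13 libraries, Igf1 and Igfals varied together. After subtraction of each group's mean log2 CPM, Pearson's r over the 13 libraries was 0.86 (permutation p = 0.00053, two-sided, permuted within groups, adjusted p = 0.0238 over the 45 pairs of members) and Spearman's rho was 0.80 (permutation p = 0.0026, adjusted p = 0.117). The permutation treated libraries that share a file-name number as separate, and the correlation was not repeated with counts summed per number. Without the 2 libraries farthest from the median of Igf1, r was 0.70, and in the 8 siLuc libraries alone it was 0.87. In siYap, replicate 5 had the most of both RNAs, and replicates 1 to 4 did not rise together: replicate 1 had the most Igf1 of these and less Igfals than replicates 2 and 4. No other pair of members had an adjusted p under 0.05 by either measure. Among the 11501 genes compared, the 3 whose within-group pattern was most like that of Igf1 were Vipas39 (r = 0.95), Socs2 (0.90) and Dcaf5 (0.88), and for Igfals they were Socs2 (0.89), Vipas39 (0.86) and Igf1 itself (0.86). Each r is over the same 13 libraries and is a description only, and the genes most like Igf1 and Igfals were added after values were seen. Socs2, a feedback inhibitor of growth hormone signalling, did not pass the test itself, with 13.6 ± 2.81 FPKM for siLuc and 13.1 ± 4.11 FPKM for siYap (adjusted p = 0.816).

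**Figure D4:**
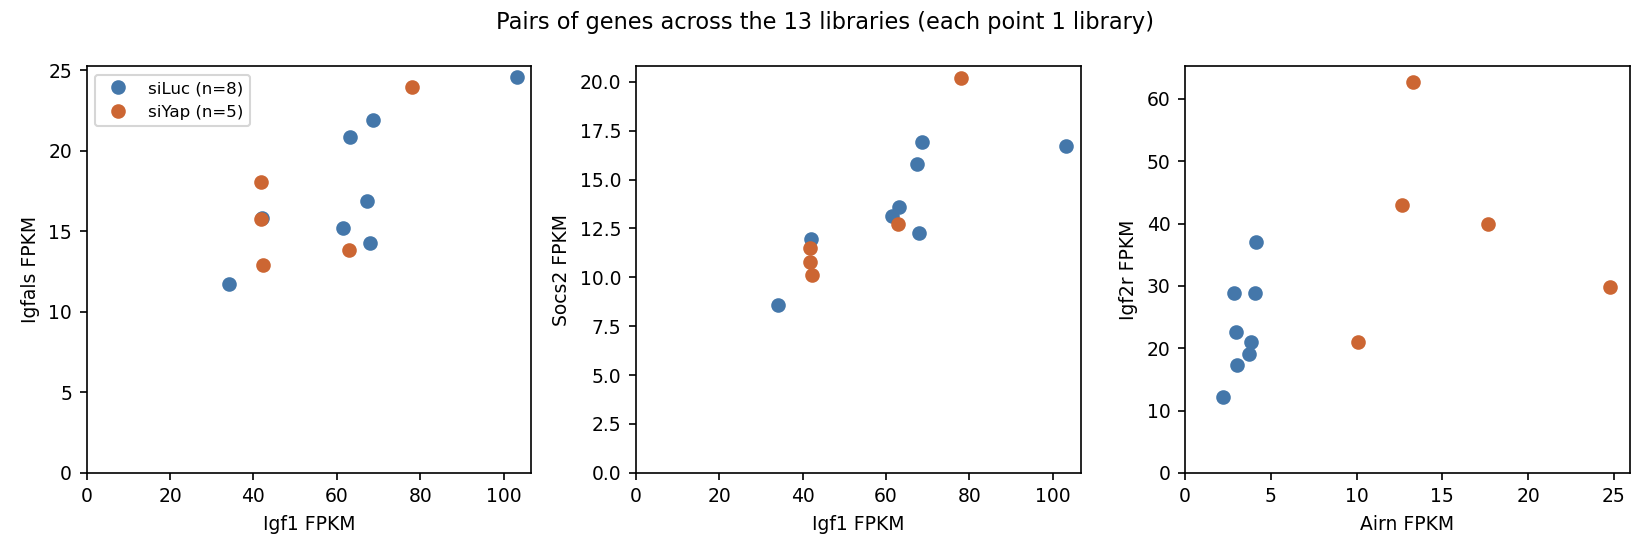
Levels (FPKM, linear axes from 0) of Igfals and Socs2 against Igf1 and of Igf2r against Airn, with 1 point for each of the 13 libraries, siLuc in blue and siYap in orange. The Igf1 pairs rise together among the siLuc points. The siYap points lie among them except for Socs2 in siYap replicate 5, at 20.2 FPKM against at most 16.9 FPKM in siLuc. Airn separates the groups, with siLuc from 2.22 to 4.12 FPKM and siYap from 10.1 to 24.8 FPKM.

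For the 3 called members the genes of most similar within-group pattern were as follows, as a description over 13 libraries. For Irs1 they were Slc25a44, Slc22a23 and Rnf43 (r = 0.91, 0.90 and 0.90). Slc22a23 and Rnf43, an antagonist of Wnt receptors, were also called higher in siYap (log2 fold change 1.89 and 3.25, adjusted p = 1.60e-05 and 4.08e-06). For Irs2 they included Tnfaip1 and Cnksr3 (0.87 and 0.87), neither of which was called (adjusted p = 0.124 and 0.442). For Igf2r they were Nbeal1, Gart and Dut (0.91, 0.88 and 0.86), of which Nbeal1 and Dut were called lower (-0.42 and -0.89, adjusted p = 0.0266 and 0.0101).

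Ranked by mean FPKM, a scale per transcript length, Igfbp1 was the highest member in both groups, averaging 91.1 ± 72.0 FPKM for siLuc and 233 ± 171 FPKM for siYap, and Igf1 was the next. In siLuc, Igfbp1 exceeded Igf1 in only 4 of 8 libraries, so this order was not set beyond the spread. Igfbp2, Insr, Igfbp3 and Igf2r followed at 32.6, 32.5, 27.7 and 23.4 FPKM, with overlapping ranges, and Igfals at 17.7 FPKM. Irs1 lay below Igfals and above Irs2 without overlap in siLuc, and Irs2 and Igf1r overlapped. In siYap, Insr and Igf2r came next after Igf1 at 41.0 and 39.3 FPKM, above Igfals, Igfbp3 and Igfbp2 at 16.9, 14.1 and 13.8 FPKM. Irs1 and Irs2 overlapped in siYap, although Irs1 was the higher in 5 of 5 libraries, and Irs2 lay above Igf1r without overlap.

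The wider pathway was read from lists of genes around these members, whose counts stand beside the 16.0% of all tested genes called higher and the 14.8% called lower. Among the other ligands, binding proteins and regulators of IGF proteases, 4 of 8 tested genes fell and 1 rose, with a median log2 fold change of -0.82. Igf2, the fetal IGF, fell from 209 ± 124 FPKM to 5.46 ± 6.44 FPKM (log2 fold change -5.14 ± 0.87, adjusted p = 0.000803). The siYap replicate 1 was the highest of its group, and the change was -6.30 on the log2 scale when it was left out. Igfbp6, a binding protein that prefers IGF-2, fell from 11.9 ± 10.8 FPKM to 0.781 ± 0.416 FPKM (adjusted p = 0.0011). Igfbp4, a binding protein that hepatocytes make, rose from 164 ± 24.2 FPKM to 262 ± 62.6 FPKM (adjusted p = 0.00188) and was thus more abundant than any of the 10 members by mean FPKM. Of the RNA-binding proteins named for Igf2, 2 of 3 fell, among them Igf2bp3 from 4.94 ± 1.80 FPKM to 1.15 ± 0.257 FPKM (adjusted p = 0.000116). The other gene that fell was near the floor, averaging 0.204 FPKM in siLuc, with a lowest value of 0, and 0.00216 FPKM in siYap. Without both shallow siYap libraries, 3 genes fell and 1 rose in the first of these lists, and 1 fell in the second.

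In the growth hormone list, 4 of 12 tested genes rose and 1 fell, with a median log2 fold change of 0.10. The prolactin receptor gene Prlr rose from 5.92 ± 2.43 FPKM to 22.8 ± 2.84 FPKM (log2 fold change 1.64 ± 0.20, adjusted p = 4.42e-05), with siYap values of 18.8 to 26.2 FPKM above all siLuc values of 3.55 to 11.5 FPKM. Stat5b, the main growth hormone effector in liver, rose from 6.76 ± 0.606 FPKM to 9.48 ± 2.03 FPKM (adjusted p = 0.00426). Jak2 fell from 22.3 ± 4.05 FPKM to 15.5 ± 1.82 FPKM (adjusted p = 0.0144), a call that ended without both shallow siYap libraries (adjusted p = 0.0633). The receptor gene Ghr itself was at 93.5 and 111 FPKM on average (adjusted p = 0.665). Without both shallow libraries 2 genes of this list rose and 0 fell.

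Downstream of the receptors, 3 of 20 tested adaptor and PI3-kinase genes rose, a share close to that of all tested genes, and 0 fell, with a median of 0.30, and the calls of Grb2 and Gab1 held in only 13 and 7 of 27 alternatives. Pik3r1, the regulatory subunit of PI3-kinase that binds IRS proteins, rose from 17.0 ± 4.41 FPKM to 26.7 ± 2.90 FPKM (adjusted p = 0.0181), and did not pass without the 4 libraries of digit 6 (adjusted p = 0.0529). Grb2 and Gab1 rose by 0.37 and 0.54 on the log2 scale (adjusted p = 0.0343 and 0.046), and without both shallow libraries 1 gene of this list rose. In the Akt, mTOR and Foxo list, 10 of 27 tested genes rose and 1 fell, with a median of 0.40. Without both shallow libraries 6 rose and 0 fell. Foxo1, the factor that insulin signalling restrains, rose from 2.18 ± 0.414 FPKM to 6.70 ± 2.23 FPKM (log2 fold change 1.62 ± 0.18, adjusted p = 2.36e-05). Its siYap values were 7.08, 4.85, 10.3, 5.005 and 6.21 FPKM, all above the siLuc range of 1.79 to 2.72 FPKM. Deptor, an mTOR inhibitor, rose from 17.5 ± 2.11 FPKM to 31.9 ± 15.6 FPKM (adjusted p = 0.00258), and Eif4ebp2, a repressor of translation that mTOR phosphorylates, from 1.42 ± 0.402 FPKM to 4.34 ± 2.87 FPKM (adjusted p = 0.0017). The other genes called higher were Phlpp1, Foxo3, Gsk3b, Tsc1, Tsc2, Mtor and Rptor. The calls thus held further inhibitors but were not confined to inhibitors. Phlpp1, Tsc1 and Tsc2 stood at 0.65, 0.59 and 0.89 on the log2 scale (adjusted p = 0.00588, 0.00453 and 0.0033). Mtor and Rptor stood at 0.69 and 0.78 on the log2 scale (adjusted p = 0.00493 and 0.00289). Rictor was called lower, at -0.38 (adjusted p = 0.038). The call of Rictor ended without both shallow libraries and with counts summed per file-name number. It also ended when siLuc replicate 2, 4, 6, 7 or 8 or siYap replicate 1, 2 or 3 was left out singly.

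**Figure D5:**
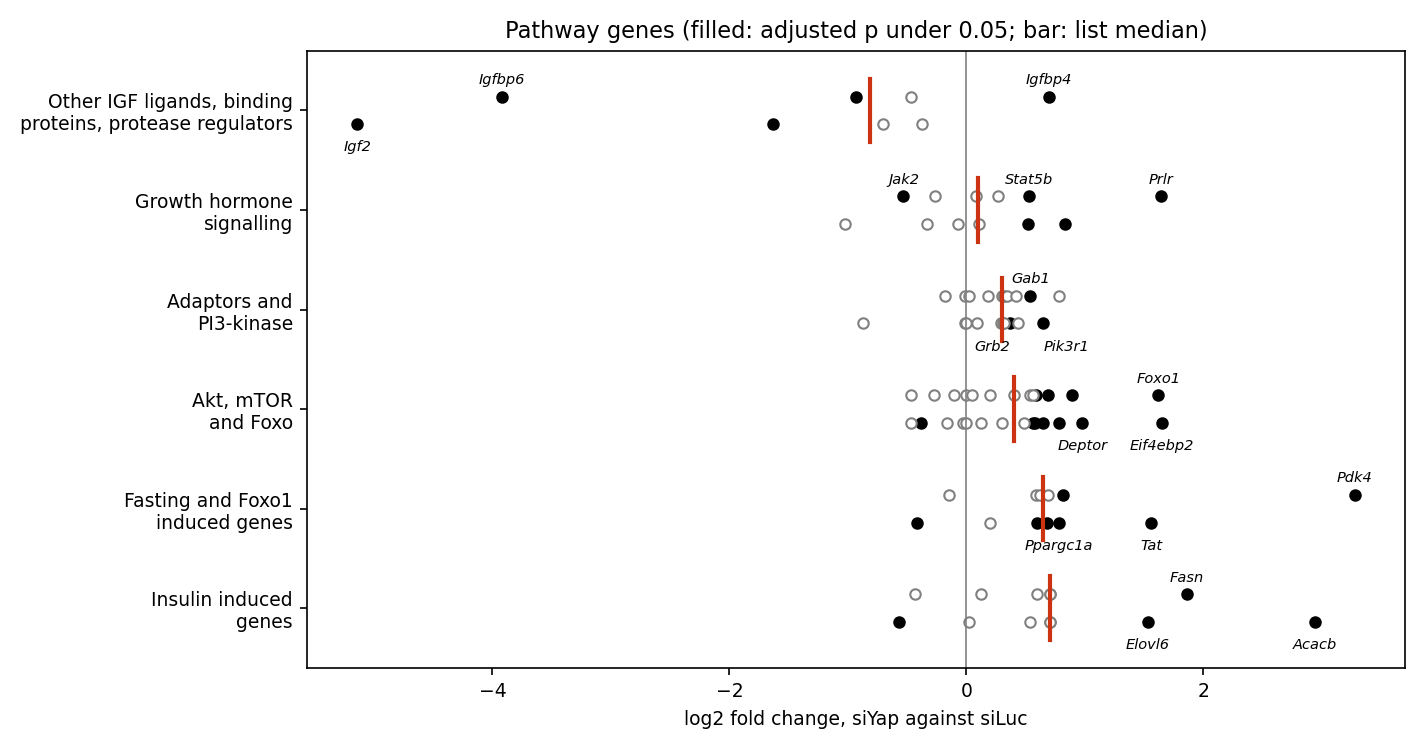
Log2 fold change of siYap against siLuc for the tested genes of 6 pathway lists; each point is 1 gene, filled where the adjusted p is under 0.05, the red bar is the list median, and the vertical offset of points has no meaning. Medians run from -0.82 for the other IGF ligands and binding proteins to 0.71 for the insulin induced genes.

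In the fasting and Foxo1 list, 6 of 12 tested genes rose and 1 fell, with a median of 0.65. Pdk4, the kinase that shuts pyruvate out of the citric acid cycle, rose from 1.95 ± 1.23 FPKM to 18.2 ± 8.196 FPKM (log2 fold change 3.28 ± 0.41, adjusted p = 8.07e-05). Tat, tyrosine aminotransferase, rose from 139.5 ± 36.4 FPKM to 409 ± 29.9 FPKM (adjusted p = 3.86e-05) and the coactivator Ppargc1a from 4.97 ± 1.295 FPKM to 8.56 ± 1.15 FPKM (adjusted p = 0.00848). The gluconeogenic genes Pck1 and G6pc did not pass, at 191 and 275 FPKM on average for Pck1 (adjusted p = 0.341) and 60.0 and 67.1 FPKM for G6pc (adjusted p = 0.857). In the insulin induced list, 3 of 13 rose and 1 fell, with a median of 0.71. Fasn, fatty acid synthase, rose from 16.4 ± 5.08 FPKM to 59.1 ± 50.8 FPKM (adjusted p = 0.0021), and its log2 fold change went from 1.86 to 1.22 without siYap replicate 3. Acacb rose from 0.924 ± 0.439 FPKM to 7.10 ± 5.52 FPKM and Elovl6 from 10.1 ± 3.53 FPKM to 29.1 ± 17.2 FPKM (adjusted p = 0.000318 and 0.00479). Without both shallow libraries, 3 genes rose and 0 fell in each of these 2 lists. Cftr, Socs2, Ghr, Phlpp1, Foxo3, Gsk3b, Tsc1, Tsc2, Mtor, Rptor, Rictor, Pck1 and G6pc were chosen for mention after their values were seen.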

How the data were processed

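Tumour RNA of 13 libraries (8 siLuc, 5 siYap) was analysed. The submitters' processing notes list Cuffdiff 2.1.1, TopHat2 2.0.8, Trimmomatic 0.30 and Cufflinks, and the build mm10; which tool did what, the annotation and any strand setting are not given in the sources. The authors deposited 1 table per library with raw fragments, which are estimated counts (97.6% to 98.0% within 1e-06 of a whole number), and with FPKM, both named so per the file headers. The 3 genes marked as too deep were left out; all 10 members were marked OK. The deposited series table of FPKM, with 13 columns, was not used. Counts were rounded and tested with edgeR 4.0.16 (R 4.3.3, TMM, default filter by group, robust quasi-likelihood F test, no covariates), checked on simulated data. The standard error is the log2 fold change over the root of F. Alternatives used DESeq2 1.42.0, limma 3.58.1, other scalings, filters and sets of libraries. Every pair within a group differed beyond counting noise (chi-square over degrees of freedom at least 34.8).

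The members, gene lists and tests were chosen with earlier results of these data known. All members were named, with up to 3 called genes of smallest p per list at 1 FPKM or more, and for each called member the 3 genes of most similar pattern. Of the genes so chosen or counted, 2 are not reported here by name. Chromosome positions are from GENCODE M21 (GRCm38, the build mm10), and promoters from RefSeq. Protein sequences were not used here, and the planned comparison of them was not made.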

Additional observations from a re-analysis of the deposited data

Results flagged for a closer look

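In each group of each named gene, the library at the top or bottom was compared with its nearest neighbour relative to the group's range (Dixon's ratio), in 66 groups. Chance flags about 1 in 20 groups, and 15 were flagged. Of the members, Irs1 was low in siLuc replicate 1 (4.03 FPKM), Irs2 high in siYap replicate 3 (8.53 FPKM), Igfbp2 high in siLuc replicate 4 (92.1 FPKM) and Igfbp3 high in siLuc replicate 1 (82.3 FPKM). Among fits that left out 1 library, the log2 fold change of Igfbp3 was smallest without siLuc replicate 1, at -0.49, and that of Irs2 without siYap replicate 3, at 1.11.

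The siYap replicate 3 also stood above its group for Deptor (59.0 FPKM), Fasn (148 FPKM) and Acacb (16.5 FPKM). Replicate 1 of siYap was high for Igf2 (16.7 FPKM), replicate 2 for Ajuba (5.36 FPKM) and replicate 5 for Ppargc1a (10.5 FPKM). Among siLuc libraries, replicate 8 was high for Igfbp6 (36.7 FPKM), replicate 4 for Prlr (11.5 FPKM), replicate 1 for Pdk4 (4.57 FPKM) and replicate 7 for Elovl6 (17.7 FPKM), and replicate 5 was low for Grb2 (5.86 FPKM).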

How the results depend on the processing

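Irs2 kept its direction and call in all 27 alternatives (log2 fold change 0.99 to 1.56), and Irs1 lost its call only to the fold threshold of 1 on the log2 scale (0.79 to 1.12). Igf2r lost its call in 6 of 27. The count of members called higher was 2 to 4 when 1 library was left out and 1 with the fold threshold. The count called lower was 0 in each of those fits, and it was 1 with DESeq2's Wald test (Igfbp2), with the replicate block, with a term for the file-code digit and, chosen after seeing the data, without digit 6 (Igfbp3 in these 3).

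Over all genes, 2422 were called higher and 2246 lower. Leaving out 1 library gave 1729 to 2397 higher and 1596 to 2236 lower, and leaving out both shallow siYap libraries 1512 and 1472. An adjusted p under 0.01 gave 1264 and 1098, and the fold threshold 1053 and 939. The replicate number shared by titles, used as a replicate block, gave 1199 and 1126, and ended the calls of Stat5b, Deptor, Jak2, Grb2 and Gab1 (adjusted p = 0.0837, 0.0683, 0.153, 0.173 and 0.154). Counts summed per file-name number gave 1901 and 1892. Libraries with the same replicate number deviated together by r of -0.12 to 0.127, so they were not treated as pairs, and only replicate 4 correlated best with its own number.

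Signs reversed for Igf1r and Igfals. Igf1r, -0.75 over all libraries, was -1.26 without both shallow libraries, 0.06 with DESeq2, 0.53 with the replicate block and -1.08 to 0.04 when 1 library was left out, with 0.04 without siLuc replicate 8. Igfals was 0.13 without both shallow libraries, 0.01 with the digit term, and between -0.19 and 0.05 when 1 library was left out (0.02, 0.05 and 0 without siLuc replicates 3, 4 and 5, 0.01 and 0.05 without siYap replicates 1 and 3). The causes were not tested. The low fragment counts of Igf1r (from 111 per library) and Irs2 (from 186) limit their precision.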
